A study of Mus musculus with 20 samples.

Results

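The 9 genes described here are the nuclear genes Tfam, Tfb1m, Tfb2m, Polrmt, Polg, Polg2, Ssbp1, Nrf1 and Gabpa. They were taken by symbol from 25052 genes listed for each library, and all 9 passed the minimum level for testing, as did 12775 genes in all. Frozen left ventricle of 20 male mice was profiled by poly(A) RNA sequencing in 4 groups of 5. WT mice carried floxed ACC2 alleles (ACC2f/f) without Cre, and iKO mice were ACC2f/f littermates that also carried MerCreMer (MCM), a tamoxifen-activated Cre recombinase. Both genotypes received tamoxifen at 8 weeks of age (20 mg/kg for 5 days), and 4 weeks later went on to chow or high-fat diet (HFD) for 16 weeks. Mice with MerCreMer but unfloxed ACC2 were not among the samples, so loss of ACC2 and presence of the Cre cannot be told apart. The promoter that drives MerCreMer is not given in the sources used here.

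Mitochondrial DNA encodes subunits of the respiratory chain and of ATP synthase, and depends on nuclear genes for its transcription and copying. The polymerase POLRMT transcribes it from promoters opened by TFAM and TFB2M, while the replicative polymerase consists of the catalytic subunit POLG and the accessory subunit POLG2 and works with the single-strand binding protein SSBP1. TFB1M methylates ribosomal RNA of the mitochondrial small subunit. NRF1 (nuclear respiratory factor) and GABPA, the DNA-binding subunit of GABP (also called NRF-2), are transcription factors known to bind promoters of many nuclear genes for mitochondrial proteins, Tfam among them.

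On GRCm38, Tfam lies at chr10:71225464-71238280, Polrmt at chr10:79736123-79746581, Tfb2m at chr1:179528055-179546267, Tfb1m at chr17:3519256-3557781, Polg at chr7:79446231-79466362, Polg2 at chr11:106768253-106779537, Ssbp1 at chr6:40471352-40484700, Nrf1 at chr6:30047988-30153458 and Gabpa at chr16:84834925-84863779. Ssbp1, Nrf1 and Gabpa are on the plus strand and the others on the minus strand. Promoter windows of Tfam, Polrmt, Tfb2m and Tfb1m are shown because 2 of these 4 hold letters that match a GABP or NRF-1 motif and 2 do not. They come from RefSeq (GRCm38.p6), run from 250 bases before to 50 after the annotated start, and are written 5′ to 3′ on the gene's strand, with matches to CCGGAAG (GABP) or to the NRF-1 motif of 10 bases, on either strand, in capitals.
Tfam, chr10:71237995-71238294, minus strand: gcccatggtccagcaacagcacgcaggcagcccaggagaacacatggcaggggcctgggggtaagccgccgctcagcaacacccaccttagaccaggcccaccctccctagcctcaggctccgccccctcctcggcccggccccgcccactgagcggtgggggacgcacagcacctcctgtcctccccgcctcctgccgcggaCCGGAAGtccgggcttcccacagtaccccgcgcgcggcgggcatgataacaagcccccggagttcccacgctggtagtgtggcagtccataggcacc
Polrmt, chr10:79746532-79746831, minus strand: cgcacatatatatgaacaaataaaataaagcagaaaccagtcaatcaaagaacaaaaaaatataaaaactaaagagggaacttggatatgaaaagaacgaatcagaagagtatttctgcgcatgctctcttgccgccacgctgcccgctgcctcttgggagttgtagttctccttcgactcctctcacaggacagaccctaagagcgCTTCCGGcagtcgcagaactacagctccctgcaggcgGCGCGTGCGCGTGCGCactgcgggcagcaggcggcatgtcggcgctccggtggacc
Tfb2m, chr1:179546227-179546526, minus strand: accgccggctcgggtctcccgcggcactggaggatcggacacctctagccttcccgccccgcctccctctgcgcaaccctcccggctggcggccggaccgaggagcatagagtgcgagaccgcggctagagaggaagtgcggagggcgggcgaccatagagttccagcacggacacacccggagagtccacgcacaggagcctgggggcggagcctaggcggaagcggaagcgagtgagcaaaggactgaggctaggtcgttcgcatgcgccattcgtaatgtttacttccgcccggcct
Tfb1m, chr17:3557706-3558005, minus strand: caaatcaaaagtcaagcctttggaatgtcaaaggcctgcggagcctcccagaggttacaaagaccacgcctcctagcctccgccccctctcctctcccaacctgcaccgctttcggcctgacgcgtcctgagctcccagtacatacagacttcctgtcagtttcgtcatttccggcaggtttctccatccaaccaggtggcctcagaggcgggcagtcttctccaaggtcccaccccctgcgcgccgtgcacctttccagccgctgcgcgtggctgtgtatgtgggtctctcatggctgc

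In the Tfam window CCGGAAG began 47 bases before the start. In the Polrmt window the GABP letters lay on the opposite strand, and a pair of overlapping NRF-1 matches lay on the start itself. Over all 9 genes, 6 held the GABP letters (Tfam, Polrmt, Polg, Polg2, Ssbp1 and Gabpa), while 20% of the 9500 tested genes with a window did. The NRF-1 letters were found in Polrmt alone among the 9 genes, and in 11.6% of tested genes. These are matches of letters, and no binding was measured. The windows of Tfb1m and Tfb2m held neither string, which says only that these letters are not in this stretch.

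Checks of the labels came out as they state. Acacb, which encodes ACC2, lay between 34.9 and 41.92 FPKM in the 10 WT libraries and between 8.37 and 11.92 in the 10 iKO libraries. Esr1 reads, which include the oestrogen receptor part of MerCreMer, lay between 0.26 and 2.0 FPKM in WT and between 421.27 and 1616.99 in iKO. Cardiomyocyte markers were abundant in every library (8 of 8 tested), with a summed level between 22340 and 32125 FPKM. The labels number chow libraries RT1 to RT10 and HFD libraries RT11 to RT20, so order of preparation, if it followed the numbers, cannot be told apart from diet. An estimate from the smallest steps of the values put the reads assigned to genes at 12.5 M (RT7, iKO on chow) to 31.9 M (RT18, WT on HFD) per library, with a median of 22.4 M. In WT every HFD library (24.0 to 31.9 M) was deeper than every chow library (19.4 to 22.6 M). Depth and diet cannot be told apart there. In iKO the ranges overlapped, at 20.5 to 29.4 M on HFD and 12.5 to 24.1 M on chow. The part of depth in the diet differences was not tested.

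Over the 20 libraries the 9 genes spanned a range of levels per length, from Tfb2m at 29.5 ± 1.83 FPKM (mean ± SD) to Polg2 at 1.71 ± 0.322 FPKM. Between them stood Ssbp1 (21.2), Tfam (18), Gabpa (14.1), Polg (13), Polrmt (6.48), Tfb1m (3.87) and Nrf1 (3.3). Neighbours in this order were ranked alike in 20 of 20 libraries, except Gabpa over Polg (17 of 20) and Tfb1m over Nrf1 (18 of 20). The ranges of Ssbp1 and Tfam, of Tfam and Gabpa, of Gabpa and Polg and of Tfb1m and Nrf1 overlapped. The factor that acts with TFAM in initiation was the most abundant of the 9 transcripts, and the accessory subunit of the replicative polymerase the least. Polg2 also varied most, with a coefficient of variation of 18.8%, against 5.8% for Tfam.

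**Figure D1:**
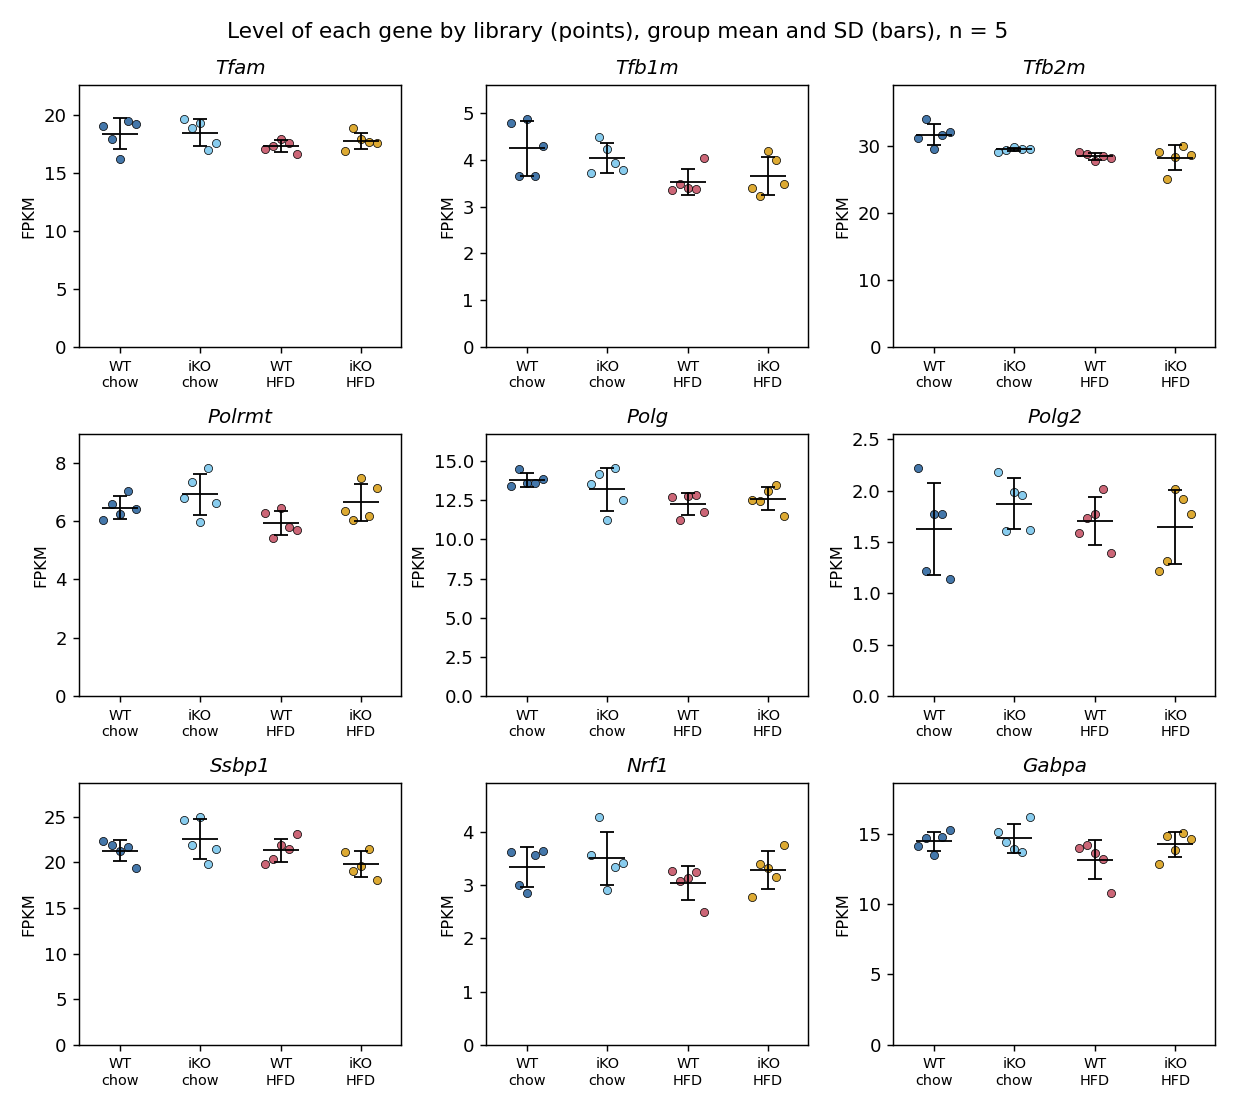
Level of each of the 9 genes in FPKM (y axis, from 0) in the 4 groups (x axis), with 1 point per library and bars for mean and SD of 5 libraries. The groups lie close together for every gene. Tfb2m of WT on HFD (28.5) sits below WT on chow (31.8) without overlap, and so does Polg (12.3 and 13.8). Tfam lies between 16.18 and 19.62 in all libraries.

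The first question was whether deletion of ACC2 changed these genes on either diet. None passed the test (limma on log2(FPKM + 1), Benjamini-Hochberg over 12775 genes, 5% level). On chow 0 of 9 changed, where 1.06% of all genes did. Of the 9, 1 had an unadjusted p under 0.05 (Tfb2m, 0.0385, adjusted p = 0.335), as did 1723 of all 12775 genes. On HFD 0 of 9 changed, where 0.172% of all genes did. Of the 9, 0 had an unadjusted p under 0.05, where 1947 of all 12775 genes did. Changes between genotypes had 95% intervals between -0.218 and 0.368 on the log2 scale on chow, and between -0.26 and 0.282 on HFD, over the 9 genes. The median was 0.018 on chow against 0.050 for all genes, and 0.035 on HFD against 0.063.

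Tfam, the packaging and promoter factor, illustrates the genotype comparison. Its level was 19.06, 17.95, 16.18, 19.44 and 19.24 FPKM in WT on chow and 19.62, 18.85, 19.33, 16.94 and 17.56 in iKO on chow. It was 17.04, 17.29, 17.94, 17.60 and 16.62 in WT on HFD and 16.86, 18.83, 17.90, 17.61 and 17.54 in iKO on HFD. All 4 groups overlapped. The iKO-to-WT difference was 0.01 ± 0.053 (log2, SE) on chow (adjusted p = 0.965 by limma) and 0.04 ± 0.053 on HFD (adjusted p = 0.759).

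Polrmt had the largest difference with genotype over both diets, and it too missed the threshold. Its levels were 6.04, 6.59, 6.23, 7.04 and 6.40 FPKM in WT on chow against 6.78, 7.35, 5.97, 7.82 and 6.63 in iKO. On HFD they were 6.29, 5.43, 6.43, 5.79 and 5.69 in WT against 6.35, 6.03, 7.48, 6.18 and 7.14 in iKO. The highest iKO libraries exceeded all WT libraries of the same diet, while the others overlapped. The difference over both diets was 0.11 ± 0.049 on the log2 scale (adjusted p = 0.165 by limma), in a comparison in which 5.17% of all genes passed.

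The second question was what 16 weeks of HFD did. In WT, 1 of 9 fell and 0 rose, where 8.04% of all genes changed (7.27% fell and 0.767% rose). In iKO, 0 of 9 changed, where 10% of all genes did. There 1 of the 9 had an unadjusted p under 0.05 by limma, as did 3278 of all 12775 genes. With both genotypes averaged, 2 of 9 fell, Tfb2m and Tfb1m, and 0 rose, where 25.8% of all genes changed (23.3% fell and 2.55% rose). That share of the 9 genes is close to the share of all genes. All 9 differences lay below 0 there, with a median of -0.085 against -0.079 for all genes, but 5 of 9 lay above 0 (Tfam, Gabpa, Polrmt, Polg2 and Ssbp1) after median-of-ratios scaling and after scaling without mitochondrial genes and their nuclear copies.

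Tfb2m, the factor that lets POLRMT start transcription, measured 31.30, 34.08, 29.63, 31.64 and 32.20 FPKM in WT on chow and 29.18, 28.84, 27.82, 28.61 and 28.20 in WT on HFD. The WT groups did not overlap, which was so for 9.99% of all genes in the lower direction. In iKO it measured 29.15, 29.53, 29.89, 29.68 and 29.57 on chow and 29.18, 25.12, 28.46, 30.01 and 28.75 on HFD, with overlap. The diet difference was -0.15 ± 0.045 on the log2 scale in WT (adjusted p = 0.0436 by limma), -0.06 ± 0.045 in iKO (adjusted p = 0.404) and -0.11 ± 0.032 over both (adjusted p = 0.0182). The interaction was 0.09 ± 0.064 (adjusted p = 0.999; 0 of 9 and 0.0313% of all genes passed), so the genotypes were not shown to differ. In WT the call was lost in 12 of 20 fits that each left out 1 library, with adjusted p up to 0.12 (without RT3, WT on chow). With median-of-ratios scaling the difference over both genotypes was -0.01 (adjusted p = 0.878), and the call was not made.

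Tfb1m, the ribosomal RNA methyltransferase, measured 4.78, 3.65, 4.87, 3.65 and 4.30 FPKM in WT on chow and 3.35, 3.49, 3.40, 3.38 and 4.03 in WT on HFD. In iKO it measured 3.72, 4.48, 4.24, 3.93 and 3.79 on chow and 3.40, 3.23, 4.19, 3.99 and 3.49 on HFD. Both pairs of groups overlapped. The difference over both genotypes was -0.16 ± 0.055 on the log2 scale (adjusted p = 0.0358 by limma), and -0.21 ± 0.078 in WT (adjusted p = 0.0966). The call was lost in 12 of 20 fits that left out 1 library, with adjusted p up to 0.0718 (without RT1, WT on chow), and after median-of-ratios scaling (-0.08, adjusted p = 0.382).

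Of the replication genes, Polg came nearest to the threshold. It measured 13.43, 14.51, 13.60, 13.61 and 13.84 FPKM in WT on chow and 12.72, 11.24, 12.81, 12.83 and 11.74 in WT on HFD. The WT groups did not overlap, which was so for 9.99% of all genes in the lower direction and for 2 of the 9 (Tfb2m and Polg). In iKO the levels of Polg overlapped, at 13.53, 14.18, 11.22, 14.57 and 12.51 on chow and 12.50, 12.43, 13.07, 13.46 and 11.52 on HFD. The difference was -0.16 ± 0.061 in WT (adjusted p = 0.105 by limma) and -0.11 ± 0.043 over both genotypes (adjusted p = 0.0662). The latter passed in 1 of 20 fits that each left out 1 library, with adjusted p = 0.0137. That fit was without RT6 (iKO on chow, the lowest library of that group). After median-of-ratios scaling the difference was -0.06 in WT (adjusted p = 0.651 by limma) and -0.02 over both genotypes (adjusted p = 0.804).

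Ssbp1 went lower on HFD in iKO without passing. Its levels there were 24.62, 21.85, 24.98, 19.81 and 21.41 FPKM on chow and 21.15, 19.05, 19.59, 21.44 and 18.07 on HFD, with 2 chow libraries above all the rest. The difference was -0.17 ± 0.063 (adjusted p = 0.0875 by limma). It passed in 1 of 20 fits that each left out 1 library, the fit without RT7 (adjusted p = 0.0397). RT7 had the lowest depth and also the lowest Ssbp1 level of the iKO chow group (19.81). After median-of-ratios scaling the difference in iKO was -0.09 (adjusted p = 0.603). On the deposited scale the difference in WT was 0.00 ± 0.063 (adjusted p = 0.991). Polg2 lay between 1.14 and 2.22 FPKM in all libraries, Nrf1 between 2.5 and 4.29, and Gabpa between 10.79 and 16.19, and neither diet nor genotype moved them past the test. The lowest values of Nrf1 and Gabpa were both in RT19 (WT on HFD), whose FPKM sum was the highest of all 20 libraries (874125).

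**Figure D2:**
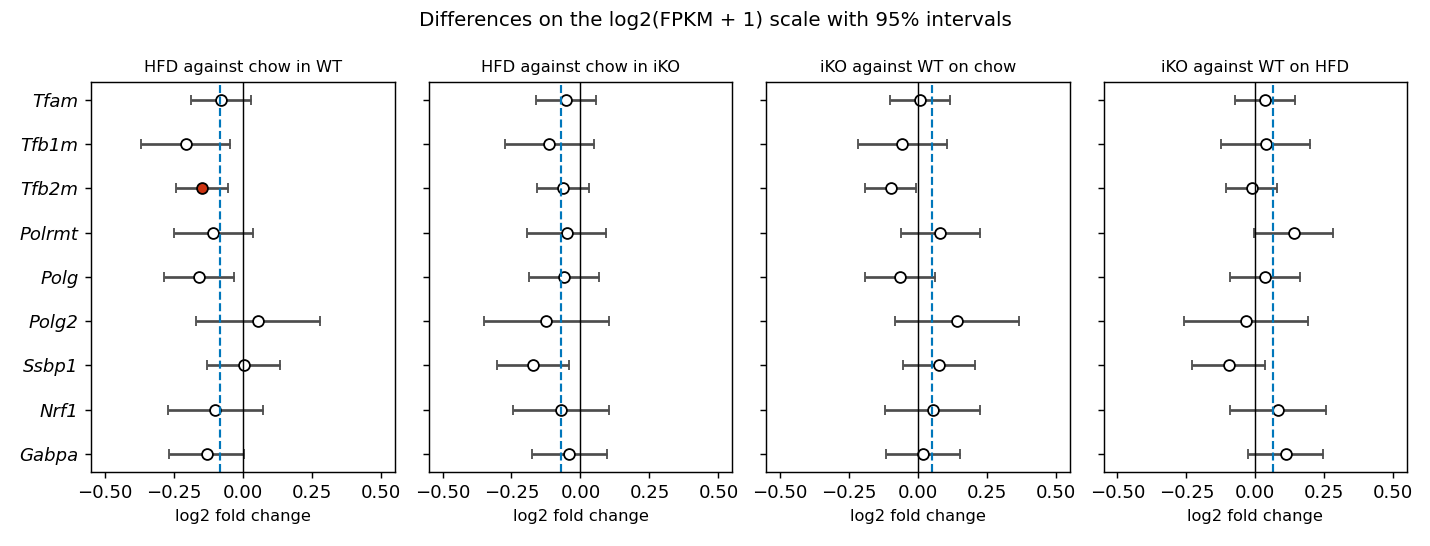
Log2 fold change of each of the 9 genes (x axis) with its 95% interval in 4 comparisons (panels), with filled points for adjusted p under 0.05 and a dashed line at the median of all 12775 genes. Tfb2m in the WT diet comparison is the filled point, and the points scatter around the dashed line, which lies at -0.084 and -0.072 for the diet comparisons.

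These small differences stand beside a larger share of mitochondrial RNA. The 15 mitochondrially encoded genes took 32.5, 33.0, 33.6, 33.1 and 32.9% of the summed FPKM in WT on chow and 34.5, 36.5, 35.2, 35.3 and 34.2% in WT on HFD. In iKO they took 32.5, 30.1, 33.5, 30.1 and 33.9% on chow and 35.9, 34.9, 35.2, 35.1 and 34.5% on HFD. Every HFD library stood above every chow library. HFD added 2.11 percentage points in WT and 3.12 in iKO (exact permutation test, two-sided, p = 0.00794 each, the smallest that 5 against 5 allow, adjusted p = 0.0159 over 4 comparisons). Genotype made a difference of -1.03 points on chow (exact permutation p = 0.325) and of -0.00885 on HFD (exact permutation p = 1.0). Low values of RT4 and RT7 widened the iKO chow group; without them the diet difference in iKO was 1.84 points, and the HFD libraries still stood above all remaining chow libraries (exact permutation adjusted p = 0.0714, the smallest that 3 against 5 allow beside the other 3 comparisons).

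This share misses reads that fell on near-identical copies of mitochondrial DNA in the nuclear genome. Of 11 such copies at 95% identity or more, 6 were above 1 FPKM, all on chromosome 1. For mt-Co2 only 1.06 to 2.12% of the FPKM of gene and copy lay on the mitochondrial gene, for mt-Co3 2.74 to 5.49%, and for mt-Co1 99.0 to 99.9%. Levels of the split genes are therefore uncertain. With the copies included the share was 57.0 ± 0.554% and 55.6 ± 2.65% on chow (WT and iKO, SD, n = 5) and 60.5 ± 1.2% and 59.3 ± 0.64% on HFD, so the diet differences were 3.57 and 3.75 points. In bulk tissue, more mitochondrial RNA per cell and more cells rich in it cannot be told apart.

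**Figure D3:**
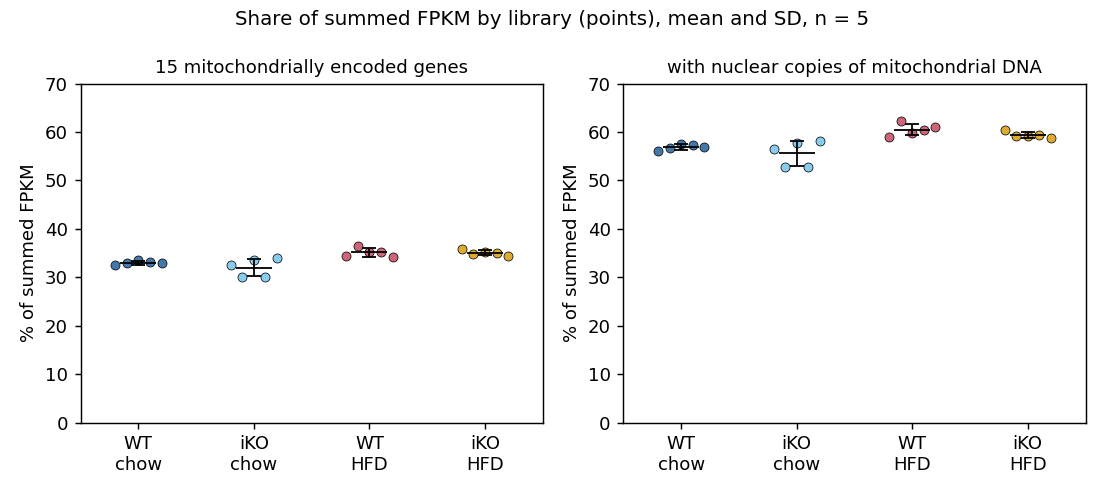
Share of summed FPKM (y axis, %, from 0) in the 4 groups (x axis), for the 15 mitochondrially encoded genes (left) and with nuclear copies of mitochondrial DNA added (right), with 1 point per library and bars for mean and SD of 5. HFD libraries lie above chow libraries in both panels, and 2 iKO chow libraries lie at 30.1% on the left.

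Of all 12775 genes, 326 rose and 2973 fell with diet over both genotypes on the deposited scale, and 689 rose and 632 fell after median-of-ratios scaling. With each library rescaled to FPKM not encoded in mitochondrial DNA, 348 rose and 1560 fell, with the median of all genes at -0.053. Median-of-ratios scaling put the median of all genes at -0.002, and of the 9 genes at 0.004. On that scale 0 of 9 changed with diet in WT, in iKO or over both genotypes, where 5.39% of all genes rose and 4.95% fell over both.

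Levels of the 9 genes were set against the mitochondrial share within each diet, over 10 libraries and with levels rescaled to the FPKM of genes not encoded in mitochondrial DNA. Of 18 relations 0 passed at an adjusted p of 0.05, and 1 had an unadjusted p under 0.05. That was Polrmt on chow, with Pearson's r = -0.77 (permutation p = 0.0114, adjusted p = 0.205) and Spearman's rho = -0.54 (permutation p = 0.114, adjusted p = 0.807). Without the 2 libraries farthest from the median share (RT4 and RT7) r was -0.08, so the relation rested on those libraries. Both were iKO, and the part of genotype in this relation was not tested.

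Among themselves the 9 genes varied with little in common. After removal of group means, the 36 pairwise correlations over 20 libraries had a median of 0.05 and ran from -0.5 (Ssbp1 with Nrf1) to 0.57 (Nrf1 with Gabpa, and Polrmt with Polg). Genes most like Tfam in this measure were Zfp979 (r = 0.74), Zfp68 (0.73) and Fam171b (0.73), and genes most like Gabpa were Trove2 (0.85), Papd5 (0.84) and AU022252 (0.83). These correlations are descriptions over libraries that share depth and scaling.

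Other genes of mitochondrial DNA upkeep and expression were taken from 5 lists of nuclear genes, 57 of 58 tested. Over both genotypes 16 of 57 fell with HFD (28.1%) and 0 rose, against 23.3% of all genes that fell. After median-of-ratios scaling 5 fell and 1 rose, where 4.95% of all genes fell and 5.39% rose. In the list of RNA processing and stability 7 of 17 fell, including the 3 subunits of mitochondrial RNase P, which cuts tRNAs out of the primary transcript: Hsd17b10 by 0.31 ± 0.039 (log2, adjusted p = 9.19e-06 by limma), Trmt10c by 0.15 ± 0.038 (adjusted p = 0.00594) and Prorp by 0.16 ± 0.054 (adjusted p = 0.0322). Hsd17b10 also passed after median-of-ratios scaling (-0.21, adjusted p = 0.0057), while Trmt10c (-0.07, adjusted p = 0.333) and Prorp (-0.09, adjusted p = 0.331) did not. Rexo2, an oligoribonuclease, and Slirp, which stabilises mitochondrial mRNA with LRPPRC, were among the other 4. Neither passed after median-of-ratios scaling (Rexo2 -0.09, adjusted p = 0.143, and Slirp -0.14, adjusted p = 0.202).

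In the list of nucleotide supply 5 of 12 fell over both genotypes, where 23.3% of all genes did. Among them Slc25a4, the heart form of the ADP/ATP carrier, fell by 0.24 ± 0.038 (adjusted p = 0.000115 by limma). Tk2, the thymidine kinase of mitochondria, fell by 0.27 ± 0.057 (adjusted p = 0.00177). Tk2 passed after median-of-ratios scaling too, and Slc25a4 had an adjusted p of 0.0561 there. After scaling without mitochondrial genes and their nuclear copies both passed (adjusted p = 0.0282 for Tk2 and 0.00448 for Slc25a4, by limma). In the replisome list 2 of 12 fell, beside the same 23.3% of all genes. These were Mpv17, by 0.17 ± 0.036 (adjusted p = 0.00206), and Rnaseh1, the RNase H that removes RNA from hybrids with DNA, by 0.23 ± 0.052 (adjusted p = 0.00309). After median-of-ratios scaling Mpv17 no longer passed, Rnaseh1 did, and the exonuclease gene Mgme1 rose (0.13, adjusted p = 0.0373). Neither Rnaseh1 (adjusted p = 0.0518 by limma) nor Mgme1 (adjusted p = 0.0704) passed after scaling without mitochondrial genes and their nuclear copies. On that scale 1 of the 57 genes rose and 5 fell. The 1 that rose was Suclg1 of the nucleotide supply list (0.102, adjusted p = 0.00937). Of 7 genes for elongation and termination 1 fell, beside 23.3% of all genes. This was Tefm, the elongation factor of POLRMT, by 0.15 ± 0.05 (adjusted p = 0.0277), and it did not pass after median-of-ratios scaling (-0.06, adjusted p = 0.572).

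Among 9 partners and coactivators of NRF1 and GABPA 1 fell with diet over both genotypes, beside 23.3% of all genes. This was Pprc1, a coactivator of the PGC-1 family, by 0.30 ± 0.07 (adjusted p = 0.00382 by limma), and by 0.23 after median-of-ratios scaling (adjusted p = 0.017). Ppargc1a, which encodes PGC-1α, did not pass in any comparison. On chow it measured 23.3 ± 3.88 FPKM in WT and 30.5 ± 2.98 in iKO, and on HFD 26.7 ± 5.83 in WT and 43.6 ± 26.6 in iKO (SD, n = 5), where single libraries ranged from 21.12 to 74.31. With genotype 0 of 57 genes changed on chow or on HFD, where 1.06% and 0.172% of all genes did. Over both diets 1 of 57 rose and 0 fell, where 5.17% of all genes changed. This was Slc25a36, a mitochondrial nucleotide carrier, by 0.24 ± 0.061 (adjusted p = 0.0305 by limma). After median-of-ratios scaling that call was not made. On that scale 0 of 57 rose and 2 fell (3.51%), where 99 of all 12775 genes rose and 280 fell.

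On the deposited scale 12 of the 13 mitochondrially encoded mRNAs had a diet difference above 0 over both genotypes, while all 9 genes lay below 0. Over both genotypes 8 of 13 rose and 0 fell, with a median of 0.157, where 2.55% of all genes rose. After median-of-ratios scaling 9 of 13 rose, where 5.39% of all genes did. The largest increase was that of mt-Nd2, a subunit of complex I, at 0.23 ± 0.031 (adjusted p = 2.56e-05 by limma). Its level on chow was 19018 ± 378.4 FPKM in WT and 18262 ± 1456 in iKO, and on HFD 21766 ± 975.1 in WT and 21838 ± 374.3 in iKO (SD, n = 5). The mRNAs mt-Cytb (0.17 ± 0.027, adjusted p = 0.000106) of complex III and mt-Nd4 (0.18 ± 0.028, adjusted p = 0.000119) also rose. The others that rose were mt-Co1, mt-Nd1, mt-Nd4l, mt-Nd5 and mt-Nd6. The last is the one mRNA encoded on the opposite strand, and its value rose by 0.16 ± 0.043 (adjusted p = 0.011). Whether the reads counted for mt-Nd6 came from that strand was not tested. Genes whose reads were mostly on nuclear copies, mt-Co2, mt-Co3, mt-Atp6 and mt-Nd3, did not pass on the deposited scale, and nor did mt-Atp8. Over all libraries mt-Co1 had the highest level of the 13 (81751 FPKM) and mt-Co2 the lowest (1031 FPKM), with the reads of the latter split as given above.

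**Figure D4:**
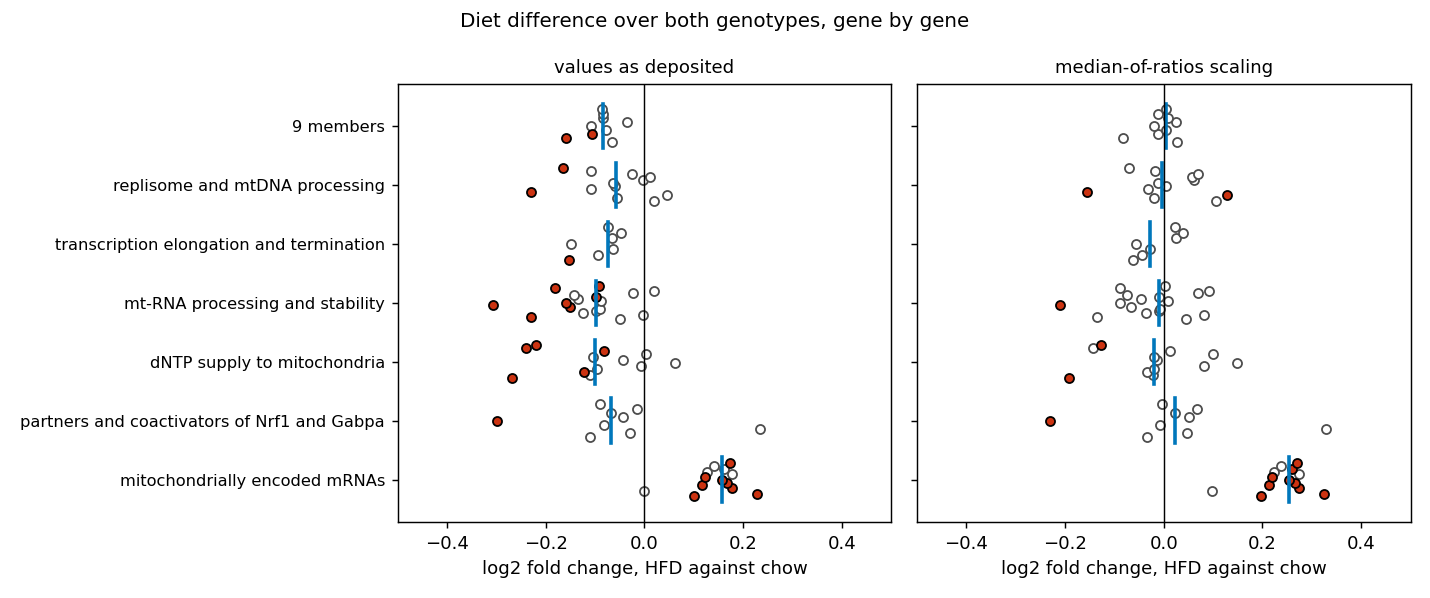
Log2 fold change of HFD against chow over both genotypes (x axis) for each gene of 7 lists (rows), on the deposited scale (left) and after median-of-ratios scaling (right), with filled points for adjusted p under 0.05 and a bar at the median of the list. The 9 genes move from a median of -0.085 to 0.004, and the median of the mitochondrially encoded mRNAs lies to the right of the medians of the nuclear lists in both panels.

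Of 8 cardiomyocyte markers 5 fell with diet over both genotypes (median -0.184, beside 23.3% of all genes and a median of -0.079), with summed levels of 28364 to 29381 FPKM in WT on chow and 22340 to 27805 in WT on HFD, and of 28069 to 32125 in iKO on chow and 23519 to 25364 in iKO on HFD. Summed atrial markers (4 genes) lay between 57.8 and 691.4 FPKM in WT on chow and between 21.4 and 69.4 in WT on HFD. In iKO they lay between 93.6 and 358.3 on chow and between 41.5 and 115.3 on HFD. Summed fibroblast markers (8 genes) ran on chow from 335.1 to 406.4 FPKM in WT and from 377.0 to 734.7 in iKO, and on HFD from 335.3 to 367.8 in WT and from 319.2 to 634.3 in iKO. These ranges overlapped between genotypes, and 0 of 8 fibroblast markers changed with genotype on either diet, and 1 rose over both diets. With diet over both genotypes 1 of 8 fibroblast, 1 of 6 smooth muscle and pericyte, 1 of 2 atrial and 1 of 2 skeletal muscle markers fell. The 1 brown adipocyte marker tested, Cidea, rose, while Elovl3 was under 0.1 FPKM and Ucp1 was not listed. Of the skeletal muscle markers, Myh1 was under 0.1 FPKM and Myh4 was not listed. The brown adipocyte and skeletal muscle counts rest on single genes and do not show that either cell type changed. Of 7 endothelial, 6 macrophage, 4 erythroid and 1 Schwann cell markers, 0 passed by limma. These marker counts are on the deposited scale, on which 326 of all genes rose and 2973 fell with diet over both genotypes. Marker counts on the other scales are not given here. The part of these marker shifts in the diet differences above was not tested.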

How the data were processed

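Per the labels' protocols, poly(A) libraries of left ventricle were sequenced as 100 nt single reads. The authors deposited FPKM per gene and library, with 2 decimals. Per the submitters' processing notes, Bowtie2, RSEM, DESeq2 and the build mm9 were used, without versions. Of the gene IDs, 24938 of 25052 matched GENCODE M21 (GRCm38), from which positions were taken by ID. Genes that reached 0.5 FPKM in 5 or more libraries were tested as log2(FPKM + 1), computed from the deposited FPKM, which understates changes of low genes. Limma 3.58.1 (trend, robust; R 4.3.3) fitted 4 group means to all 20 libraries, with Benjamini-Hochberg adjustment over all genes and calls at 0.05. The script was tested on simulated data. Shares were compared by exact permutation tests and correlations by permutation tests of 100000 resamples (Python 3.11.15, scipy 1.17.1). Nuclear copies were found with BLAST+ 2.17.0 (95% identity over 80% of the transcript). Median-of-ratios scaling divided each library by its median ratio to the geometric mean. Depth was estimated from the steps of low values in genes with 1 short transcript. The 9 genes, the lists and the tests were chosen with earlier results of these data known. Named genes were the 9 genes, Acacb, Esr1, Ppargc1a, up to 4 called genes per list and comparison by smallest p, the called mitochondrial mRNAs and the 3 genes most like Tfam and Gabpa. Prorp, Mgme1, Suclg1 and the marker genes named singly fall outside this rule and were named after their values were seen. The result of 1 single gene is not reported here.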

Additional observations from a re-analysis of the deposited data

Results flagged for a closer look

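Of 44 groups of 5 libraries examined for a library far from the other 4, 2 had one, and chance alone gives about 1 in 20. Tfb1m measured 4.03 FPKM in RT19 (WT on HFD), where the other 4 libraries of the group lay between 3.35 and 3.49. Nrf1 measured 2.5 FPKM in the same library, where the other 4 lay between 3.09 and 3.27. RT19 also had the lowest Gabpa level (10.79 FPKM), the highest share on nuclear copies of mitochondrial DNA (26.9% of FPKM) and the highest FPKM sum. Without RT19 the diet difference of Tfb1m in WT was -0.25 ± 0.079 (adjusted p = 0.0614 by limma) and that of Nrf1 was -0.05 ± 0.083 (adjusted p = 0.769), so neither passed with or without it. The part of these features of the library in its values was not tested.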

How the results depend on the processing

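The larger share of mitochondrial RNA on HFD passed in both genotypes with the 13 mRNAs alone, as a ratio to other nuclear genes, with nuclear copies and without any 1 library. A pseudocount of 0.1 changed none of the calls of the 9 genes. Of the relations between gene levels and the share, 0 of 18 passed on each of 3 scales. With nuclear copies counted in the share, 3 had an unadjusted p under 0.05 by Pearson's r, against 1 on each of the other 2 scales. Among them was Ssbp1 on HFD over 10 libraries (r = 0.73, permutation p = 0.0156, adjusted p = 0.233, Spearman's rho = 0.82, permutation p = 0.00545, adjusted p = 0.0981, and r = 0.85 without the 2 farthest libraries). The scalings also moved the split of calls: with median-of-ratios scaling 180 genes rose and 152 fell with diet in WT (98 and 929 as deposited), 324 and 241 in iKO (211 and 1068), and 99 and 280 with genotype over both diets (512 and 148). On chow it was 19 and 124 with genotype (44 and 92), and on HFD 8 and 17 (13 and 9). On the deposited scale the called genes numbered 136 for genotype on chow, 22 for genotype on HFD, 1027 for diet in WT, 1279 for diet in iKO, 3299 for diet over both genotypes, 660 for genotype over both diets and 4 for the interaction. Without the filter on low values, the called genes were 7 for genotype on HFD, 622 for diet in WT, 830 for diet in iKO, 259 for genotype over both diets and 0 for the interaction, and the called members of the 9 were 0 for diet in WT and 1 for diet over both genotypes. With median-of-ratios scaling, the called genes were 332 for diet in WT, 565 for diet in iKO, 1321 for diet over both genotypes, 379 for genotype over both diets and 0 for the interaction, and the called members of the 9 were 0 for diet in WT and 0 for diet over both genotypes. Rescaled to genes not encoded in mitochondrial DNA, the called genes were 595 for diet in WT, 652 for diet in iKO, 1908 for diet over both genotypes and 7 for the interaction, and the called members of the 9 were 0 for diet in WT and 0 for diet over both genotypes. With limma without trend and robust moderation, the called genes were 14 for genotype on HFD and 0 for the interaction, and the called members of the 9 were 0 for diet in WT. Rescaled without mitochondrial genes and their copies (added after seeing the data), the called genes were 315 for diet in WT, 570 for diet in iKO, 1267 for diet over both genotypes and 404 for genotype over both diets, and the called members of the 9 were 0 for diet in WT and 0 for diet over both genotypes. Without RT1 and RT4 (added after seeing the data), the called genes were 87 for genotype on chow, 839 for diet in iKO, 337 for genotype over both diets and 0 for the interaction, and the called members of the 9 were 0 for diet in WT and 1 for diet over both genotypes. Without RT4 and RT7 (added after seeing the data), the called genes were 74 for genotype on chow, 509 for diet in iKO, 230 for genotype over both diets and 0 for the interaction, and the called members of the 9 were 1 for diet in iKO and 1 for diet over both genotypes. Without RT4 and RT7 the diet difference of the mitochondrial share in iKO was 1.84 points with no overlap of the groups (adjusted p = 0.0714, which 3 against 5 cannot go below here), and the genotype difference on chow was 0.255 points. Some differences of single genes changed sign, and their new values (log2) follow. With median-of-ratios scaling they were, for genotype on chow, Tfam -0.0495 and Gabpa -0.0377, for genotype on HFD Tfam -0.0393, Tfb1m -0.0234 and Polg -0.0371, and for diet in WT Tfam 0.0205. For diet in iKO they were Tfam 0.0307, Tfb2m 0.0218, Polrmt 0.0267, Polg 0.0226 and Gabpa 0.0413, and for diet over both genotypes Tfam 0.0256, Polrmt 0.00498, Polg2 0.0253, Ssbp1 0.00777 and Gabpa 0.00397. For genotype over both diets they were Tfam -0.0444 and Gabpa -0.000373. Rescaled to genes not encoded in mitochondrial DNA they were Tfb2m 0.00867 for genotype on HFD and Gabpa 0.00175 for diet in iKO. Rescaled without mitochondrial genes and their copies they were, for genotype on chow, Tfam -0.0184 and Gabpa -0.00711, and for diet in WT Tfam 0.0114. For diet in iKO they were Tfam 0.0452, Tfb2m 0.0366, Polrmt 0.04, Polg 0.0368, Nrf1 0.00857 and Gabpa 0.0558, and for diet over both genotypes Tfam 0.0283, Polrmt 0.00751, Polg2 0.0277, Ssbp1 0.0103 and Gabpa 0.00689. For genotype over both diets it was Tfam -0.0015. Without RT1 and RT4 it was Ssbp1 with 0.00217 for genotype over both diets. Without RT4 and RT7 they were, for genotype on chow, Polrmt -0.000141 and Nrf1 -0.0105, for diet in iKO Polrmt 0.0313 and Polg 0.0207, and for genotype over both diets Ssbp1 0.0242. Leaving out each library in turn, the counts ran 6 to 39 genes for genotype on HFD, 623 to 1182 genes for diet in WT, 0 to 1 of the 9 for diet in WT, 0 to 1 of the 9 for diet in iKO, 1 to 2 of the 9 for diet over both genotypes, 336 to 1042 genes for genotype over both diets and 0 to 5 genes for the interaction. The ranges that crossed 0 were -0.235 to 0.322 points for the share with genotype on HFD, -0.0353 to 0.0361 for Tfam with genotype on chow, -0.000342 to 0.0354 for Tfam with genotype over both diets, -0.00137 to 0.0769 for Tfb1m with genotype on HFD, -0.0297 to 0.0123 for Tfb1m with genotype over both diets, -0.0344 to 0.0275 for Tfb2m with genotype on HFD. Others were -0.0318 to 0.0119 for Polg with genotype over both diets, -0.0851 to 0.0259 for Polg2 with genotype on HFD, -0.0157 to 0.132 for Polg2 with diet in WT, -0.0698 to 0.00388 for Polg2 with diet over both genotypes, -0.0295 to 0.0263 for Ssbp1 with diet in WT, -0.0292 to 0.0108 for Ssbp1 with genotype over both diets. The last were -0.0061 to 0.103 for Nrf1 with genotype on chow and -0.016 to 0.0414 for Gabpa with genotype on chow. The causes of these changes were not tested. No paired analysis was possible because the library numbers RT1 to RT20 are not shared between groups. The depth is an approximate estimate, and low genes such as Polg2 carry the largest errors. The limma p-values rest on a spread between mice that is shared over the 4 groups and moderated across genes. Those of the shares rest on at most 5 mice per group, and those of the correlations on 10 libraries per diet.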

Other observations

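Nuclear copies of mitochondrial DNA, taken alone, differed between genotypes on HFD. They held 24.2 ± 0.219% of FPKM in iKO and 25.4 ± 0.948% in WT (SD, n = 5), a difference of -1.19 points (exact permutation p = 0.00794, adjusted p = 0.0159 over 4 comparisons), and every iKO library stood below every WT library. On chow they held 23.6 ± 0.823% and 23.9 ± 0.282% (exact permutation p = 0.405). The summed share of the mitochondrially encoded genes showed no such difference on HFD (-0.00885 points). For genes and copies summed, the difference was -1.2 points (exact permutation p = 0.103, adjusted p = 0.138 over 4 comparisons). Most reads of mt-Co2, mt-Co3, mt-Atp6 and mt-Nd3 were on copies, so the split between gene and copy is uncertain for these. The comparison of copies alone was made after the copies were found in the data.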
